A study of Rattus norvegicus with 14 samples.

Results

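The ATP-binding cassette (ABC) genes were followed in rat PCCL3 thyroid cells across 4 groups of RNA-seq libraries. Members were chosen by gene symbol alone: Abc, then the subfamily letter a, b, c, e, f or g, then a number. Of the 16816 rows of the count table, 41 matched. The 32 that reached 10 or more counts in every library of at least 1 group are described, and the remaining 9 are accounted for below.

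PCCL3 is an immortalised rat thyroid follicular cell line that keeps differentiated thyroid functions when it is grown with thyrotropin. PPFP cells were stably transfected with the human PAX8-PPARG fusion protein (PPFP), the product of a chromosomal translocation in thyroid carcinoma, carrying a Myc tag at its amino terminus, and EV cells were stably transfected with the empty vector. Each line received 1 μM pioglitazone, a thiazolidinedione ligand of PPARG, or its DMSO vehicle for 16 hours, which gave the groups EV, EV+Pio, PPFP and PPFP+Pio with 3 libraries each from independent experiments. All 12 cultures shared a medium with serum, bovine thyrotropin, bovine insulin, apo-transferrin and hydrocortisone. Each construct was present in 1 stably transfected line, so an effect of the fusion protein cannot be told apart from other differences between the lines. The promoter of the vector, and whether a line was a clone or a pool, are not given in the sources used here.

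ABC proteins bind and hydrolyse ATP on paired nucleotide-binding domains, and most of them use that energy to move lipids, drugs, peptides or ions across a membrane. The A and G subfamilies are known mainly for lipid and sterol transport, the B and C subfamilies for the export of drugs, bile salts, peptides and organic anions, and the E and F subfamilies have no membrane domains and act on ribosomes and translation. PPARG, with the oxysterol receptor LXR, is known to raise the sterol exporters Abca1 and Abcg1 in macrophages.

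The libraries held 23724703 to 35240176 counts. Pparg had 36 to 88 counts in the 6 EV and EV+Pio libraries and 1274 to 1848 counts in the 6 PPFP and PPFP+Pio libraries, in the order of the labels. The counts cannot separate reads of the rat gene from reads of the human fusion transcript, and their source was not tested. The 7 thyroid follicular markers were all expressed, with a summed normalised level of 9827 to 14139 CPM over all libraries (CPM, the usual depth-normalised count, taken here from the library total scaled by TMM, the trimmed mean of M values). Of the fibroblast markers 2 of 6, of the blood and immune markers 2 of 6 and of the endothelial markers 0 of 3 listed in the table reached 10 counts in any library, and Col3a1, Dcn, Lum, Itgam and Cdh5 were at 0 in all libraries. The summed level of 5 adipocyte markers moved with the lines, from 10.1 to 13.1 CPM in EV and 9.15 to 13.9 CPM in EV+Pio to 714 to 741 CPM in PPFP and 957 to 982 CPM in PPFP+Pio, of which Cfd alone made up 704 to 730 CPM in PPFP and 919 to 932 CPM in PPFP+Pio. Lep was at 0 in all libraries and Fabp4 was at most 0.189 CPM. Plin1 averaged 0.056 CPM in EV, 0.071 in EV+Pio, 6.44 in PPFP and 40.9 in PPFP+Pio, and Adipoq averaged 2.13, 1.88, 4.54 and 2.40 CPM in the same order. The part of these markers in the ABC results was not tested.

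Among the 9 rows not described, Abcg2, a broad drug exporter, and Abcc8, the sulfonylurea receptor of pancreatic beta cells, had 0 counts in all libraries, which allows up to 0.128 CPM in the shallowest library for counting error only. The annotation behind the counts is not known here, so a row that could receive no reads and a gene that was not expressed cannot be told apart at 0. The others were Abca5, Abca15, Abcb1a, Abcb1b, Abcb4, Abcc2 and Abcg3l2. Just inside the minimum lay Abcc6, whose best group had at least 19 counts in every library, and Abcb11, with at least 28. Just outside lay Abcg3l2, with at least 9, and Abcb1b, one of the rat P-glycoprotein genes, with at least 7. A minimum of 5 counts would have kept 35 rows and a minimum of 20 would have kept 31. The clustered copies Abcg3 and Abcg3l1 to Abcg3l4, and the pair Abcb1a and Abcb1b, could have shared reads in counting, so their counts are uncertain.

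Between the lines without pioglitazone, 11 of the 31 described members that could be tested were higher in PPFP cells and 6 were lower, by edgeR's quasi-likelihood test with a Benjamini-Hochberg adjusted p under 0.05. Over all genes tested, 22.0% were higher and 23.1% lower. Of these members 9 also differed by more than 2-fold, 6 higher and 3 lower, where 14.6% of all genes did so in either direction. With pioglitazone, 14 of 32 members were higher and 8 lower, against 26.3% and 26.4% of all genes, and 12 passed 2-fold, 6 in each direction, against 19.7%. The members' median log2 fold change was 0.14 without and 0.33 with pioglitazone, where the medians of all genes were 0.0016 and 0.012. Abca4, Abcc6 and Abcc12 reached the count minimum only in EV and EV+Pio, and Abcb11 only in PPFP+Pio. Members chosen through the groups where they were high had to differ between the lines, so these counts describe the 32 and not the family. In bulk RNA, fewer cells with a transcript and less of the transcript per cell cannot be told apart.

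Scaling by library size alone shifted the median of all genes by -0.081 without and -0.14 with pioglitazone, and the members then split as 8 higher and 7 lower without and 10 higher and 11 lower with the drug. The direction split is therefore given relative to the median gene. The comparisons without and with pioglitazone share no library. They use the same 2 lines, and libraries of a line paired by replicate number, so their calls are not independent. Of 31 members tested in both, 15 were changed in both and all 15 in the same direction. A further 2 were changed only without the drug and 6 only with it. Singly, the comparisons called 45.2% and 52.7% of all genes, and the share changed in both was not counted. Abca4 and Abcc12, among the 15, were described only through EV and EV+Pio, which favoured both calls.

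**Figure D1:**
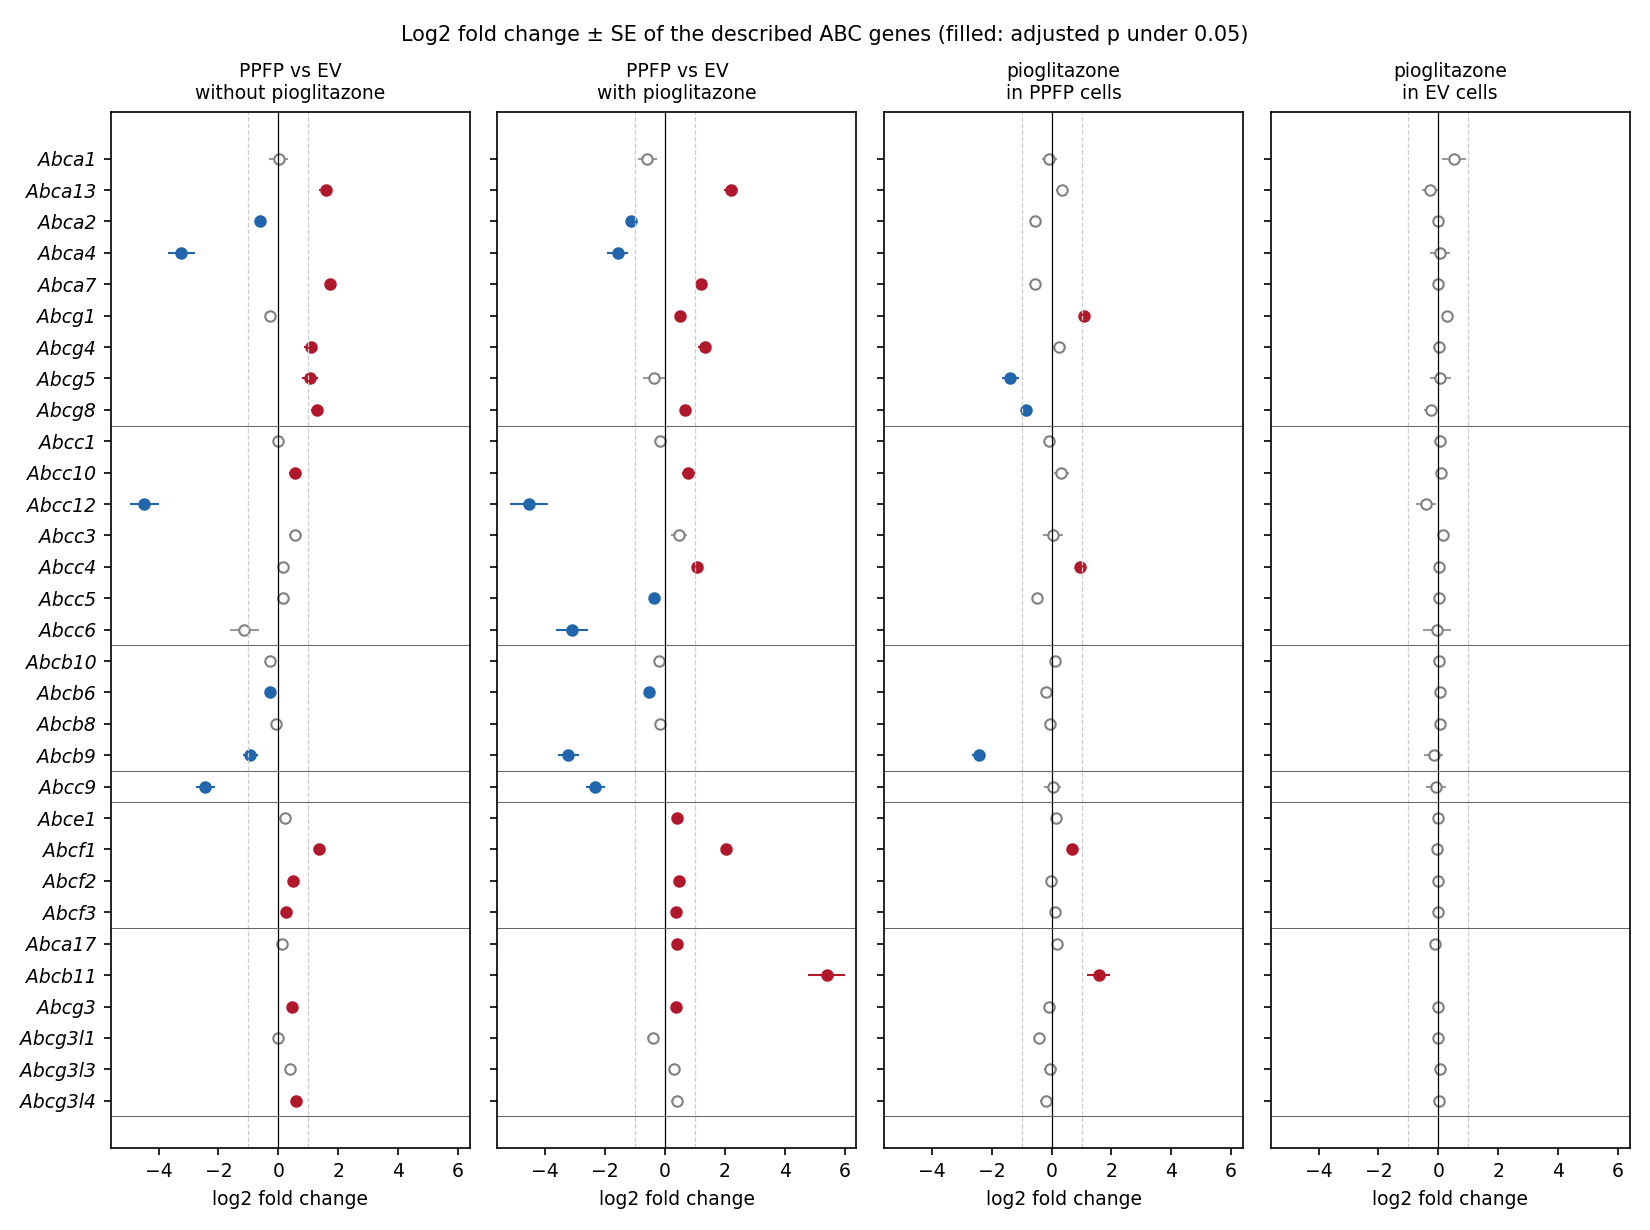
Log2 fold change (horizontal axis, ± SE, 3 libraries per group) of the described ABC genes in 4 comparisons, in blocks by role from lipid transport at the top to bile salt and other transporters at the bottom, with filled points for an adjusted p under 0.05 and dashed lines at 2-fold. Abcc12 reached -4.48 and -4.55 in the panels of PPFP versus EV cells, and no point is filled in the panel of EV cells.

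In PPFP cells, pioglitazone raised 4 of 29 tested members (Abcf1, Abcc4, Abcg1 and Abcb11) and lowered 3 (Abcb9, Abcg5 and Abcg8), where 7.63% of all genes rose and 7.13% fell, and 4 members passed 2-fold, where 2.42% of all genes did. Abcb11 was chosen through PPFP+Pio, where it is high, so its place in both counts was favoured by the choice of members and nothing is read from it. The libraries of a line paired by replicate number, so the same test was also run with the replicate as a block. With this replicate block 9 members rose and 8 fell, against 27.7% and 23.9% of all genes. Members called with the block and not without it included Abcc10, Abca13, Abce1 and Abcf3 among the higher and Abca7, Abca2, Abcc5, Abcg3l1 and Abcb6 among the lower.

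In EV cells, edgeR's quasi-likelihood test called 0 of 31 tested members, and 0% of all genes, for pioglitazone. The members with an unadjusted p under 0.05 also numbered 0, against 16 of all genes, or 4 against 605 with the replicate block, and DESeq2 and edgeR's exact test called 0 members each. With the replicate block 1 member, Abca1, rose, and it was the only gene called of 10146 (0.00986%).

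The difference between the lines in their pioglitazone response was tested as an interaction. It was higher in PPFP cells for 2 of 32 members (Abcc4 and Abcf1) and lower for 1 (Abcb9), where 1.38% and 1.26% of all genes were called, and 1 member passed 2-fold, where 0.925% did. With the replicate block within each line it was higher for 7 members and lower for 10, against 17.2% and 17.1% of all genes.

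Lipid transport was the role with the largest number of described members (9 of 11 rows). Without pioglitazone 5 were higher in PPFP cells (Abca7, Abca13, Abcg4, Abcg5 and Abcg8) and 2 lower (Abca2 and Abca4), with a median log2 fold change of 1.06, where 22.0% and 23.1% of all genes were higher and lower. With pioglitazone Abcg5 was no longer called and Abcg1 was higher, so that 5 were higher and 2 lower (median 0.50), against 26.3% and 26.4% of all genes. Abca4 was described only through EV and EV+Pio, so its place among the lower was favoured by the choice of members. Within PPFP cells 1 of the 8 tested rose with the drug and 2 fell, against 7.63% and 7.13% of all genes, and with the replicate block 2 rose and 4 fell, against 27.7% and 23.9%.

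Abca7, a close relative of Abca1 that exports phospholipids, was 107, 88.1 and 105 CPM in the 3 EV libraries and 257, 391 and 353 CPM in the PPFP libraries. The groups did not overlap, and the gene was 3.33-fold higher in PPFP cells (log2 fold change 1.74 ± 0.16 SE, adjusted p = 1.6e-04). With pioglitazone it was 100, 93.2 and 105 CPM in EV+Pio and 186, 241 and 245 CPM in PPFP+Pio, a 2.28-fold difference (adjusted p = 2.8e-04). Within PPFP cells all 3 pairs were lower with the drug, at 0.722, 0.618 and 0.694 of the paired vehicle library. That fall passed the test with the replicate block (-0.55 ± 0.04, adjusted p = 1.2e-11) and did not without it (adjusted p = 0.096). Without the block it was called by edgeR's exact test, by DESeq2, in the fit of all 12 libraries and without PPFP replicate 1 (adjusted p = 0.0082, 0.022, 0.034 and 0.019).

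Abcg5 and Abcg8 each encode part of a transporter and work only as a pair, exporting plant sterols and cholesterol into bile and the gut. In the RefSeq annotation of the rat genome build GRCr8 their start sites lie head to head, Abcg8 on the minus and Abcg5 on the plus strand, with 205 bases between them. This shared interval is shown because both genes were higher in PPFP cells without pioglitazone and fell with it in PPFP cells, although they parted when the lines were compared with pioglitazone. It spans chr6:15717731-15717935 and is printed on the plus strand, with AGATAA, a match to the binding motif of GATA factors, and CCAAT, here on the minus strand, in capitals.
Abcg8 to Abcg5: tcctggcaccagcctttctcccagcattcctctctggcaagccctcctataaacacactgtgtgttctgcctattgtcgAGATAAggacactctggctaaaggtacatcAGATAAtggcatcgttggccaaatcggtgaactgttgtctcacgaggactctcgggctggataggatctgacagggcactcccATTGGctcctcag
The 2 AGATAA matches lie 126 and 96 bases, and the CCAAT match 13 bases, before the Abcg5 start. Both motifs were chosen after the sequence was seen. The interval held 0 matches to AGGTCA, the core element of nuclear receptors such as PPARG and LXR, and 0 to the direct repeat described further on.

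Abcg8 was 4.63, 2.95 and 3.10 CPM in EV and 8.42, 8.99 and 8.56 CPM in PPFP libraries, 2.43-fold higher in PPFP cells (1.28 ± 0.20, adjusted p = 0.0015). Its partner Abcg5 was 2.63, 1.44 and 1.73 CPM in EV and 3.13, 4.74 and 4.24 CPM in PPFP libraries, 2.08-fold higher (1.06 ± 0.28, adjusted p = 0.016). For neither gene did the EV and PPFP libraries overlap. In PPFP+Pio, Abcg8 was 4.32, 4.70 and 5.07 CPM, and pioglitazone lowered it 1.83-fold in PPFP cells (-0.87 ± 0.11, adjusted p = 0.0041). Abcg5 was 1.02, 1.45 and 2.10 CPM in PPFP+Pio and fell 2.60-fold (-1.38 ± 0.30, adjusted p = 0.027). All 3 pairs were lower with the drug for both genes.

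With pioglitazone on both sides, Abcg8 remained higher in PPFP cells (0.66 ± 0.17, adjusted p = 0.014), while Abcg5 overlapped between EV+Pio and PPFP+Pio, with a log2 difference of -0.38 (95% interval -1.11 to 0.35, adjusted p = 0.42). In EV cells the response was -0.24 for Abcg8 and 0.06 for Abcg5, neither passing the test. The interaction was -0.64 for Abcg8 and -1.45 for Abcg5. It passed with the replicate block (adjusted p = 0.0080 and 3.2e-04) and did not without it (0.27 and 0.17). The Abcg5 call without pioglitazone was lost when EV replicate 2 or PPFP replicate 2 or 3 was left out, with adjusted p up to 0.057, and its response call when PPFP replicate 2 or 3 or PPFP+Pio replicate 2 was left out, with adjusted p up to 0.11. Leaving out PPFP+Pio replicate 2 or 3 ended the Abcg8 call with pioglitazone (adjusted p up to 0.068).

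**Figure D2:**
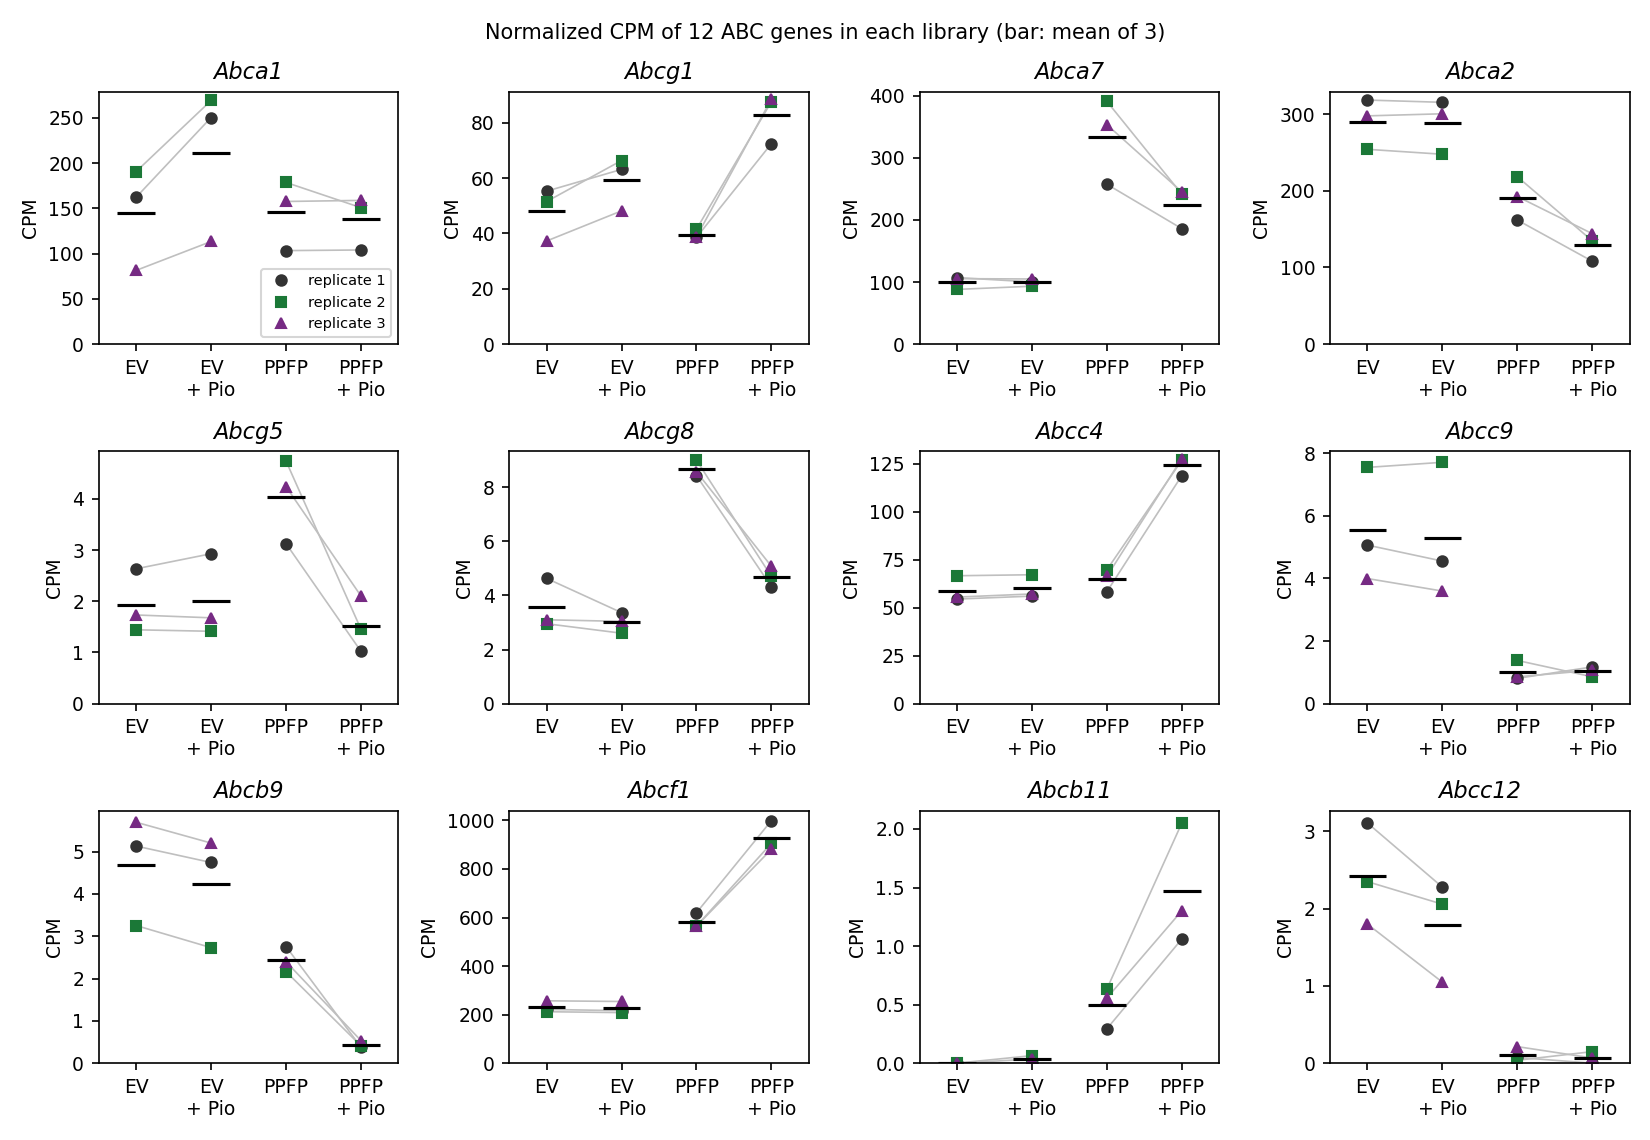
Normalized CPM (vertical axes, from 0) of 12 ABC genes in the EV, EV+Pio, PPFP and PPFP+Pio libraries, with a bar at the mean of 3, a symbol for each replicate number and grey lines joining libraries of the same number within a line. Abcg8 stood at 8.42 to 8.99 in PPFP and at 4.32 to 5.07 in PPFP+Pio, and Abcf1 rose from 565 to 620 in PPFP to 881 to 999 in PPFP+Pio.

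Abca4, the flippase that clears retinoid adducts in photoreceptors, was 1.72, 1.85 and 0.966 CPM in EV and 0.0736, 0.224 and 0.171 CPM in PPFP libraries, which rest on 2 to 6 counts each. It was 9.47-fold lower in PPFP cells without pioglitazone (-3.24 ± 0.45, adjusted p = 9.6e-04) and 3.00-fold lower with it (-1.58 ± 0.35, adjusted p = 0.0077). Abca4 was described only through EV and EV+Pio, so both tests were favoured by the choice of members, and the values are a description. In PPFP+Pio it stood at 0.341, 0.485 and 0.701 CPM, above every PPFP library. Within PPFP cells the counts were below the filter of the test. Fits with a library left out in which the gene entered gave a response of 1.34 to 2.06 with adjusted p up to 0.19, and the block without pair 1 called it (1.54, adjusted p = 0.0080). The interaction of 1.64 passed only with the replicate block (1.62, adjusted p = 0.0097, against 0.25 without).

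Abca2, a lipid transporter of late endosomes and lysosomes, was 318, 254 and 298 CPM in EV and 162, 218 and 193 CPM in PPFP libraries, 1.52-fold lower in PPFP cells (-0.60 ± 0.13, adjusted p = 0.0081). In PPFP+Pio the values of 108, 135 and 144 CPM lay below those of all other groups, and the gene was 2.21-fold lower than in EV+Pio (-1.14 ± 0.15, adjusted p = 5.9e-04). The fall with pioglitazone in PPFP cells had an adjusted p of 0.057 without and 1.4e-10 with the replicate block, at the same size (-0.55). Without the block the same 4 alternatives as for Abca7 called it (adjusted p = 0.0027, 0.0056, 0.028 and 0.024).

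Abca13 and Abcg4 were higher in PPFP cells in both comparisons. Abca13, the largest member of the A subfamily, was 0.743, 1.04 and 0.966 CPM in EV and 2.65, 3.13 and 2.44 CPM in PPFP, 2.99-fold higher (1.58 ± 0.22, adjusted p = 0.0010), and 4.61-fold higher with pioglitazone (2.20 ± 0.23, adjusted p = 2.4e-04). Abcg4, a sterol exporter best known from the brain, was 3.38, 2.92 and 3.06 CPM in EV and 5.04, 8.47 and 6.38 CPM in PPFP. It was 2.12-fold higher without (1.09 ± 0.22, adjusted p = 0.0051) and 2.50-fold higher with pioglitazone (1.32 ± 0.22, adjusted p = 0.0019). The EV and PPFP libraries did not overlap for either gene.

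Abca1 exports cholesterol and phospholipid to apolipoprotein A-I, and Abcg1 passes sterol on to larger lipoproteins. Abca1 was 162, 191 and 81.5 CPM in EV and 103, 179 and 158 CPM in PPFP libraries. The lines overlapped, with a log2 difference of 0.02 (95% interval -0.61 to 0.64). In EV+Pio Abca1 was 250, 269 and 113 CPM. Each EV library rose with the drug, to 1.54, 1.41 and 1.39 times its paired vehicle library, although replicate 3 was low in both groups and the groups overlap. The response in EV cells was 0.53 ± 0.04 with the replicate block (adjusted p = 0.0042) and 0.54 ± 0.40 without it (adjusted p = 1.00). In PPFP+Pio Abca1 was 104, 151 and 159 CPM, or 1.01, 0.844 and 1.01 times the paired vehicle library, a response of -0.07 (95% interval -0.55 to 0.40) that was called with the block when pair 1 was left out (-0.12, adjusted p = 0.017). With pioglitazone the lines overlapped (-0.59, 95% interval -1.21 to 0.03, adjusted p = 0.16), and Abca1 was called lower in PPFP cells by edgeR's exact test (adjusted p = 0.047) and without EV+Pio replicate 3 (-0.91, adjusted p = 0.0059). The interaction was -0.61 ± 0.07 with the replicate block (adjusted p = 1.4e-05) and -0.63 ± 0.52 without it (adjusted p = 0.73).

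Abcg1 was 55.3, 51.5 and 37.3 CPM in EV, 63.1, 66.4 and 48.2 CPM in EV+Pio, 38.6, 41.5 and 38.8 CPM in PPFP and 72.5, 87.6 and 88.6 CPM in PPFP+Pio. Pioglitazone raised it 2.11-fold in PPFP cells (1.08 ± 0.10, adjusted p = 0.0014), with no overlap between the groups. In EV cells all 3 pairs were higher, at 1.14, 1.29 and 1.29 times the vehicle library, and the response of 0.30 did not pass the test with the replicate block (adjusted p = 0.17) or without it (1.00), but it passed with the block when pair 2 was left out (0.27, adjusted p = 5.4e-06). That fit rests on 2 pairs and also called Tg, Scarb1, Mylip and Npc2 (adjusted p from 1.9e-06 to 0.034). Its share over all genes was not counted, so the small p of Abcg1 has no background. The interaction was 0.76 ± 0.22, with an adjusted p of 0.11 without and 5.4e-06 with the block, and without the block it passed with DESeq2 (0.023) and when EV replicate 3 was left out (0.032). Without pioglitazone Abcg1 overlapped between the lines (-0.28, 95% interval -0.57 to 0.01, adjusted p = 0.17), and it was called lower in PPFP cells only when EV replicate 3 was left out (-0.43, adjusted p = 0.0090). With pioglitazone the gene was 1.42-fold higher in PPFP cells (0.50 ± 0.14, adjusted p = 0.019). That last call was lost with library size alone as the scaling, and when EV+Pio replicate 1 or PPFP+Pio replicate 2 or 3 was left out (adjusted p up to 0.070). In the fit with the block, the interaction was negative for Abca1 and positive for Abcg1.

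**Figure D3:**
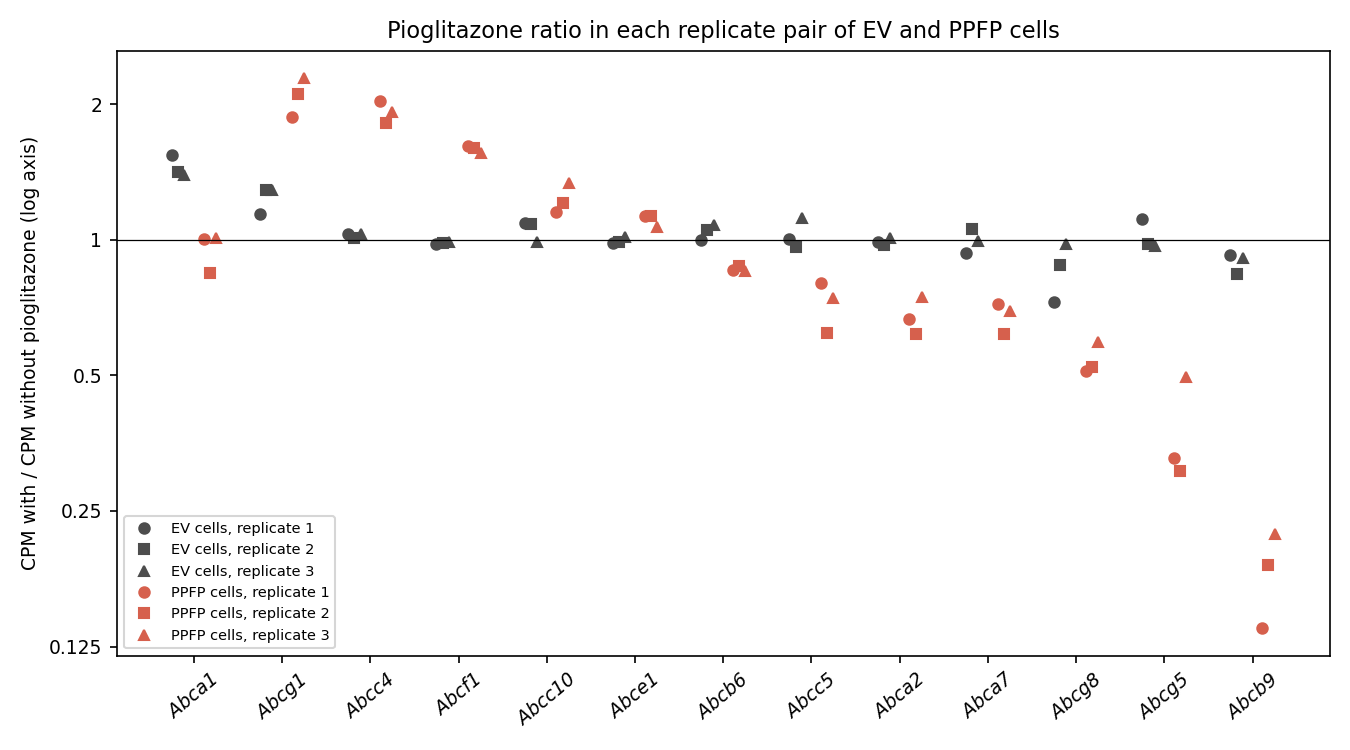
Ratio of CPM with to CPM without pioglitazone (vertical log axis) in each of the 3 replicate pairs of EV cells (dark) and PPFP cells (red) for 13 ABC genes. Abca1 lies at 1.39 to 1.54 in EV pairs and at 0.844 to 1.01 in PPFP pairs, and Abcb9 lies at 0.137 to 0.223 in PPFP pairs.

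Drug and organic anion efflux held 7 described members of 11 rows. Without pioglitazone 1 was higher and 1 lower in PPFP cells, against 22.0% and 23.1% of all genes, and with pioglitazone 2 were higher and 3 lower, against 26.3% and 26.4%. The lower ones were Abcc12 without pioglitazone, and Abcc12, Abcc6 and Abcc5 with it. Abcc12 and Abcc6 were described only through EV and EV+Pio, so the choice of members favoured these counts and nothing is read from them. The P-glycoprotein genes Abcb1a and Abcb1b had at most 8 and 10 counts in any library and did not enter the test.

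Abcc4, known as MRP4, exports cyclic nucleotides, prostaglandins and urate. It was 54.5, 66.7 and 55.5 CPM in EV, 56.0, 67.2 and 57.2 CPM in EV+Pio and 58.4, 69.8 and 66.3 CPM in PPFP, 3 groups that overlapped. In PPFP+Pio it was 119, 127 and 128 CPM, above every other library. Pioglitazone raised it 1.94-fold in PPFP cells (0.95 ± 0.08, adjusted p = 0.0012), and the response in EV cells was 0.03 (95% interval -0.19 to 0.25). The interaction was 0.91 ± 0.15 (adjusted p = 0.0076). It held in every alternative tried, with adjusted p at most 0.028. With pioglitazone Abcc4 was 2.09-fold higher in PPFP than in EV cells (1.07 ± 0.09, adjusted p = 8.3e-05), and without it the log2 difference was 0.14 (95% interval -0.08 to 0.36).

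Abcc12, or MRP9, a C-subfamily member of uncertain substrate, had 54 to 92 counts in the EV libraries and 1 to 5 in the PPFP libraries. In CPM it was 3.11, 2.35 and 1.80 in EV and 0.0736, 0.0373 and 0.214 in PPFP. It was 22.3-fold lower in PPFP cells without pioglitazone (-4.48 ± 0.48, adjusted p = 2.9e-04) and 23.4-fold lower with it (-4.55 ± 0.63, adjusted p = 8.1e-04), the lowest log2 fold changes of any described member. The PPFP and PPFP+Pio libraries lie near the limit of counting, so the size of these folds is imprecise. Abcc12 was described only through EV and EV+Pio, so its tests between the lines were favoured by the choice of members, and its values are a description.

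Abcc6, whose loss causes the mineralisation disorder pseudoxanthoma elasticum, was 1.62, 1.44 and 0.633 CPM in EV and 0.257, 0.746 and 0.685 CPM in PPFP. These groups overlapped, and the log2 difference of -1.13 did not pass (adjusted p = 0.094), although it did with edgeR's exact test and without EV replicate 3 (adjusted p = 0.022 and 0.024). In PPFP+Pio it was 0.0757, 0.149 and 0.167 CPM, from 2 to 5 counts, 8.66-fold lower than in EV+Pio (-3.11 ± 0.53, adjusted p = 0.0022), a test that the choice of Abcc6 through EV and EV+Pio favoured. Each PPFP pair was lower with the drug, at 0.294, 0.200 and 0.244 of the vehicle library. The counts were below the filter of the test within PPFP cells, and the fall was called without PPFP replicate 1 (-2.41, adjusted p = 0.013) and with the block without pair 1 (-2.15, adjusted p = 1.3e-04), while adjusted p reached 0.16 with another library left out. The interaction of -1.998 passed only with the replicate block (adjusted p = 0.0026, against 0.30 without).

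Abcc1, the MRP1 exporter of glutathione conjugates, did not pass the quasi-likelihood test in any comparison, without or with the replicate block. The block together with library size alone called a fall with the drug in PPFP cells (-0.15, adjusted p = 0.024) and a negative interaction (-0.22, adjusted p = 0.034), and the block without pair 3 called the first of these (-0.17, adjusted p = 0.022). It was 68.0, 80.9 and 60.5 CPM in EV and 60.5, 78.4 and 69.5 CPM in PPFP, a log2 difference of -0.01 (95% interval -0.27 to 0.26). Among the efflux members named after their values were seen, Abcc10 was higher in PPFP cells without (0.54, adjusted p = 0.037) and with pioglitazone (0.78, adjusted p = 0.016), Abcc5 was lower with pioglitazone (-0.36, adjusted p = 0.031), and Abcc3 passed in neither comparison (0.57 and 0.47, adjusted p = 0.072 and 0.17). Abcc3 was called higher without pioglitazone by edgeR's exact test, by DESeq2 and without PPFP replicate 1 (adjusted p = 0.024, 0.038 and 0.0065), and with pioglitazone without PPFP+Pio replicate 1 (adjusted p = 0.0032). The Abcc10 and Abcc5 calls each ended when 1 of several libraries was left out, with adjusted p up to 0.11 for Abcc10 and 0.10 for Abcc5.

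Among the mitochondrial and lysosomal transporters none was called higher in PPFP cells without or with pioglitazone, where 22.0% and 26.3% of all genes were, and 2, Abcb9 and Abcb6, were lower in both comparisons, where 23.1% and 26.4% were.

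Abcb9, also called TAPL, carries peptides into lysosomes. It was 5.13, 3.25 and 5.70 CPM in EV, 4.74, 2.73 and 5.20 CPM in EV+Pio, 2.76, 2.16 and 2.40 CPM in PPFP and 0.379, 0.410 and 0.534 CPM in PPFP+Pio. The PPFP+Pio libraries lay below all others, and rested on 10 to 16 counts. Without pioglitazone the gene was 1.92-fold lower in PPFP cells (-0.94 ± 0.25, adjusted p = 0.017), a call that was lost when EV replicate 1 or PPFP replicate 2 or 3 was left out (adjusted p up to 0.065). With pioglitazone it was 9.37-fold lower (-3.23 ± 0.34, adjusted p = 2.3e-04). Pioglitazone lowered it 5.41-fold in PPFP cells (-2.44 ± 0.22, adjusted p = 0.0013), to 0.137, 0.190 and 0.223 of the paired vehicle libraries, while the response in EV cells was -0.15 (95% interval -0.76 to 0.46). The interaction was -2.30 ± 0.43 (adjusted p = 0.016), and without PPFP+Pio replicate 2 its adjusted p was 0.058.

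Abcb6, a porphyrin transporter, was 107, 103 and 96.7 CPM in EV and 80.5, 83.4 and 87.3 CPM in PPFP, 1.22-fold lower in PPFP cells (-0.28 ± 0.08, adjusted p = 0.019). With pioglitazone it was 1.46-fold lower (-0.54 ± 0.07, adjusted p = 5.5e-04). The groups did not overlap in either comparison, but the call without pioglitazone was lost without any 1 of 4 libraries (EV replicate 1 and each PPFP replicate, adjusted p up to 0.081) and with edgeR's exact test. Abcb8 and Abcb10, of the inner mitochondrial membrane, lay between -0.29 and -0.07 without pioglitazone and did not pass the quasi-likelihood test in any comparison, without or with the replicate block. Other settings called each of them lower in PPFP cells. Abcb10 passed without pioglitazone with DESeq2, with library size alone, in the fit of all 12 libraries and without EV replicate 2 (adjusted p from 0.018 to 0.048), and with pioglitazone with library size alone (adjusted p = 0.035). Abcb8 passed with pioglitazone with library size alone and in the fit of all 12 libraries (adjusted p = 0.011 and 0.027).

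Abcc9 encodes SUR2, the regulatory subunit of ATP-sensitive potassium channels in muscle and vessels. It was 5.07, 7.55 and 3.998 CPM in EV and 0.809, 1.38 and 0.856 CPM in PPFP libraries. It was 5.41-fold lower in PPFP cells without pioglitazone (-2.44 ± 0.32, adjusted p = 7.7e-04) and 5.03-fold lower with it (-2.33 ± 0.32, adjusted p = 8.5e-04), with every EV library above every PPFP library in both. Pioglitazone gave 0.03 (95% interval -0.51 to 0.57) in PPFP cells and -0.07 (95% interval -0.74 to 0.60) in EV cells. The pore subunits that pair with sulfonylurea receptors, Kcnj8 and Kcnj11, had 0 counts in all libraries, like Abcc8, with the same limit of an unknown annotation, so these rows do not show whether a pore was expressed.

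**Figure D4:**
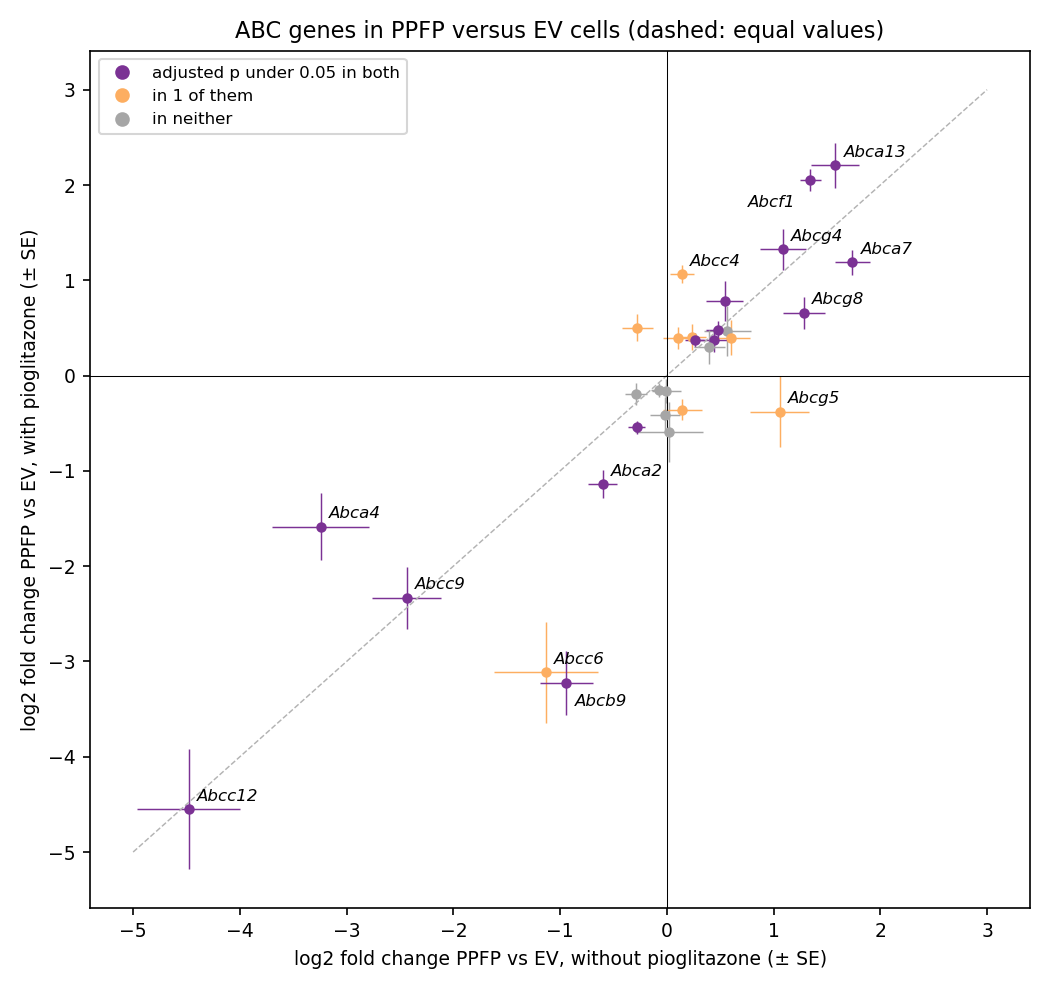
Log2 fold change of PPFP versus EV cells without (horizontal axis) and with pioglitazone (vertical axis), ± SE, for 30 of the 31 ABC genes tested in both comparisons, coloured by how many of the 2 tests they passed, with a dashed line of equal values. All 15 genes that passed both tests lie on the same side of 0 in both, and Abcb9 (-0.94 and -3.23) and Abcc4 (0.14 and 1.07) lie off the line. Both comparisons use the same 2 lines, and Abca4 and Abcc12 were described only through EV and EV+Pio.

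The soluble ATPases Abce1, Abcf1, Abcf2 and Abcf3 were all described. Without pioglitazone 3 were higher in PPFP cells and none lower, where 22.0% of all genes were higher, and with pioglitazone all 4 were higher, where 26.3% were, with a median log2 fold change of 0.44. Their fold changes stayed above 0 under each scaling tried, although Abce1 with pioglitazone and Abcf3 without it no longer passed with library size alone. With the replicate block 2 of the 4 were called higher without and 3 with pioglitazone.

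Abcf1 takes part in translation initiation and, in the rat as in other mammals, belongs to the gene-dense region of the major histocompatibility complex. It was 221, 212 and 257 CPM in EV, 216, 208 and 254 CPM in EV+Pio, 620, 565 and 565 CPM in PPFP and 999, 906 and 881 CPM in PPFP+Pio, 3 levels with no overlap between EV with or without drug, PPFP and PPFP+Pio. It was 2.54-fold higher in PPFP cells without (1.34 ± 0.10, adjusted p = 4.7e-05) and 4.14-fold higher with pioglitazone (2.05 ± 0.11, adjusted p = 1.4e-05). Pioglitazone raised it 1.60-fold in PPFP cells (0.68 ± 0.06, adjusted p = 0.0014), each pair by 1.56 to 1.61 times, and the response in EV cells was -0.03 (95% interval -0.27 to 0.21). The interaction was 0.70 ± 0.14 (adjusted p = 0.025), and it missed the threshold when any 1 of 5 libraries was left out (EV+Pio replicate 1, PPFP replicates 2 and 3, PPFP+Pio replicates 1 and 2, adjusted p up to 0.098).

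Abce1 splits ribosomes after termination so that they can be reused. It was 218, 229 and 255 CPM in EV and 327, 240 and 258 CPM in PPFP, and the groups overlapped (0.24, 95% interval -0.02 to 0.49). With pioglitazone it was 1.32-fold higher in PPFP cells (0.40 ± 0.14, adjusted p = 0.044), and this call was lost when any 1 of 5 libraries was left out (adjusted p up to 0.16). Of 4 partners in ribosome rescue and termination, 1 was higher in PPFP cells without and 2 with pioglitazone, and none was lower, against 22.0% and 26.3% of all genes higher. Pelo, which rescues stalled ribosomes, was higher in PPFP cells without (0.56, adjusted p = 0.0017) and with pioglitazone (0.69, adjusted p = 4.3e-04), and the release factor Etf1 passed with it (0.27, adjusted p = 0.018, and up to 0.10 with 1 library left out) but not without it. Hbs1l, the partner of Pelo, gave -0.24 without (adjusted p = 0.078) and -0.01 with pioglitazone, and 4 alternatives called it lower without the drug (adjusted p from 0.021 to 0.045). The release factor Gspt1 gave 0.04 and 0.10 and did not pass.

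Among bile salt and other transporters, Abcb11, the bile salt export pump of the liver, had 0 counts in the 3 EV libraries, 0, 2 and 1 in EV+Pio, 8, 17 and 13 in PPFP and 28, 55 and 39 in PPFP+Pio. In CPM it was 0.294, 0.634 and 0.557 in PPFP and 1.06, 2.05 and 1.30 in PPFP+Pio. Against the mean floor of 3 counts per EV library, the mean of the PPFP libraries was at least 4.92-fold higher. This comparison did not enter the reported test because of its low counts. It passed with no filter on low counts and in the fit of all 12 libraries (adjusted p = 0.0025 and 6.5e-04). Leaving out any EV replicate or PPFP replicate 1 also let it enter and pass (adjusted p at most 0.0098). With pioglitazone the 122 counts of PPFP+Pio against 3 of EV+Pio gave a ratio of 47.2 (95% counting interval 15.8 to 232.2), and the gene passed the test (adjusted p = 3.3e-04). Since Abcb11 was described only because PPFP+Pio reached the count minimum, the tests against that group were favoured by the choice of members, and its values are a description. Pioglitazone raised it 2.99-fold in PPFP cells (1.58 ± 0.39, adjusted p = 0.041, and 1.4e-05 with the replicate block), and without the block leaving out 1 of 5 libraries ended the call (each PPFP replicate and PPFP+Pio replicates 2 and 3, adjusted p up to 0.13). The PPFP+Pio libraries lay above every PPFP library, and both above every EV library, with or without the drug.

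The other 5 members of this role, Abca17 and 4 rows of the rodent Abcg3 cluster, had log2 fold changes between -0.02 and 0.60 without and between -0.41 and 0.40 with pioglitazone. Abcg3 and Abcg3l4 were higher in PPFP cells without pioglitazone (0.44 and 0.60, adjusted p = 0.036 and 0.028), and Abca17 and Abcg3 with it (0.40 and 0.38, adjusted p = 0.021 and 0.039). Each of these 4 calls was lost when 1 of several libraries was left out, with adjusted p up to 0.087 and 0.091 without and 0.11 and 0.16 with pioglitazone.

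ABC proteins that carry other symbols were compared by the same fits. Of 6 tested, 2 were higher without pioglitazone in PPFP cells, against 22.0% of all genes, and 3 were higher and 2 lower with it, against 26.3% and 26.4%. Abcd3, a peroxisomal importer of branched and long-chain acyl groups, was 112 ± 5.10 CPM (SD, n = 3) in EV, 113 ± 3.08 in EV+Pio, 153 ± 6.66 in PPFP and 263 ± 15.5 in PPFP+Pio. It rose with pioglitazone in PPFP cells (0.79 ± 0.06, adjusted p = 7.3e-04), and its interaction passed the test (0.77 ± 0.09, adjusted p = 0.0017). Its relative Abcd2, an importer of very-long-chain acyl groups, fell with pioglitazone in PPFP cells (-0.88, adjusted p = 0.025), a fall that was lost without 1 library (adjusted p up to 0.10). It was lower in PPFP than in EV cells with the drug (-1.13, adjusted p = 0.0010) and did not pass without it, while its interaction passed with the replicate block (adjusted p = 5.0e-04) and not without it (0.15), except when PPFP replicate 1 was left out (-0.93, adjusted p = 0.039). Tap2, a subunit of the peptide transporter of antigen presentation, was higher in PPFP cells without (0.85, adjusted p = 1.5e-04) and with pioglitazone (1.06, adjusted p = 1.2e-04), and its partner Tap1 with pioglitazone (0.48, adjusted p = 0.027, and up to 0.085 with 1 library left out) but not without it (0.29, adjusted p = 0.074, and 0.026 without EV replicate 3).

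LXR receptors, their targets and sterol partners numbered 9 in the table. Between the lines 1 was higher and 4 lower without pioglitazone, where 22.0% and 23.1% of all genes were, and 2 were higher and 4 lower with it, where 26.3% and 26.4% were. Nr1h3, which encodes LXR alpha, was 3.14, 2.72 and 1.999 CPM in EV, 3.09, 2.54 and 1.82 CPM in EV+Pio, 3.86, 6.49 and 5.57 CPM in PPFP and 8.90, 15.8 and 15.3 CPM in PPFP+Pio. The groups of the 2 lines did not overlap. It was higher in PPFP cells without (1.02 ± 0.26, adjusted p = 0.014) and with pioglitazone (2.44 ± 0.29, adjusted p = 4.2e-04), and rose with the drug in PPFP cells (1.35 ± 0.29, adjusted p = 0.027). That rise had adjusted p up to 0.10 with 1 library left out and 1.6e-11 with the replicate block. Mylip, an LXR target that degrades the LDL receptor, was lower in PPFP cells in both comparisons (-0.42 and -0.64, adjusted p = 0.0033 and 5.6e-04), and Apoe in neither (0.19 and 0.34). Within PPFP cells pioglitazone raised 3 of the 9 and lowered 2, against 7.63% and 7.13% of all genes. The LXR target Lpcat3, which remodels phospholipids, rose by 0.74 (adjusted p = 0.0045) and was higher in PPFP than in EV cells with the drug (0.89, adjusted p = 8.7e-04). Besides Nr1h3, Soat1, which esterifies cholesterol, rose by 0.24 (adjusted p = 0.032), while the lysosomal cholesterol carrier Npc2 fell by 0.23 and Nr1h2, which encodes LXR beta, fell by 0.20 (adjusted p = 0.028 and 0.047). Of these 5, only Lpcat3 kept its call with each library left out (adjusted p at most 0.033), and all 5 passed with the replicate block. Mylip gave -0.09 (adjusted p = 0.33) and was called only with the block together with library size alone (-0.14, adjusted p = 0.015). Of the factors known to control drug efflux genes 4 of 6 were tested, none was higher or lower without pioglitazone, and 1, the hypoxia factor Hif1a, was lower in PPFP cells with it (-0.32, adjusted p = 0.030, and up to 0.10 with 1 library left out). Without pioglitazone Hif1a was -0.32 (adjusted p = 0.072), and 5 alternatives called it (adjusted p from 0.026 to 0.049), while the xenobiotic receptor Nr1i3 was -0.48 (adjusted p = 0.073) and was called with library size alone and in the fit of all 12 libraries (adjusted p = 0.042 and 0.023). Nfe2l2, the main regulator of the antioxidant response, gave -0.04 in both comparisons of the lines (95% intervals -0.29 to 0.20 without and -0.36 to 0.28 with pioglitazone).

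Promoters were compared by letters alone. For 25 described members RefSeq gave a window in GRCr8 from 250 bases before to 50 after the start site. A direct repeat of AGGTCA with 1 base between the copies, the motif PPARG binds with RXR, was searched on both strands with up to 2 mismatches in its 12 fixed bases. It was found in 1 of the 25 windows (4%), against 3.77% of 33469 windows of all genes. The match was in the window of Abcg3, 62 bases before the start on the minus strand, and is shown because it is the only one. The printed stretch spans chr14:5069480-5069508, with the match in capitals and flanking bases in small letters.
Abcg3: tgggttaaTGACCACTGACTTactgtgtt
The single element AGGTCA alone was in 12% of the members' windows and 16.2% of all, AGATAA in 12% and 11.6%, and CCAAT in 40% and 37.5%, each on both strands and counted wherever it overlapped another motif. These matches are letters in a window and not measured sites. Binding of PPFP near the members was not analysed here.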

How the data were processed

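RNA-seq was done on EV and PPFP cells with and without pioglitazone, 3 libraries per group. Per the labels and methods, the authors aligned paired reads to rn4 with TopHat2 2.0.11 and counted them per gene with HTSeq 0.6.1p1 in intersection-strict mode, and the deposited values are raw counts. The annotation used for counting and the strand setting are not given in the sources used here, so reads of overlapping or antisense genes cannot be told apart. The ChIP-seq peak lists were not used here. Some members are counted but not reported by name here. The members, role lists and tests were chosen with earlier results of these data known.

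Counts were scaled by TMM and filtered by filterByExpr, and the pairwise comparisons were fitted separately with edgeR 4.0.16 (glmQLFit, glmQLFTest) in R 4.3.3, with limma 3.58.1, over all genes kept, with Benjamini-Hochberg adjustment at 0.05 and the study's 2-fold limit beside it. The interaction was fitted on all 12 libraries. The test was checked on simulated counts. CPM values use the TMM-scaled library size, intervals are at 95%, and floors of 3 counts cover counting error only. Depth sets the precision of low members, where 1 CPM is 23.4 to 36.9 counts. Nothing says that libraries came from separately transfected lines, so p-values measure the spread between experiments.

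Pairing was checked by the correlation of deviations from the group means between libraries of the same replicate number. Within EV cells it was 0.53, 0.73 and 0.77 and within PPFP cells 0.74, 0.46 and 0.43, so the numbers paired the libraries within a line. Between the lines it ranged from -0.38 to 0.32, so they did not.

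Named members were those past 0.05 and 2-fold in any comparison, the best known of each role, the 2 nearest the count minimum on each side, and a fixed set of related genes. Alternatives were DESeq2 1.42.0, edgeR's exact test, other scalings and filters, a fit of all 12 libraries, a replicate block and each library left out. The replicate block with DESeq2, with other scalings or with 1 pair left out was added after seeing the data. Sequences are from RefSeq, build GRCr8. Figures were drawn with matplotlib 3.10.9.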

Additional observations from a re-analysis of the deposited data

Results flagged for a closer look

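The response to pioglitazone differed between PPFP and EV cells, by the interaction test over all genes, for 3 members. Abcc4 responded by 0.91 ± 0.15 (log2, SE) more in PPFP cells (adjusted p = 0.0076), and all 3 PPFP pairs rose, to 1.82 to 2.04 times the vehicle library, where the EV pairs lay at 1.01 to 1.03. Abcb9 differed by -2.30 ± 0.43 (adjusted p = 0.016), with PPFP pairs at 0.137 to 0.223 and EV pairs at 0.839 to 0.924. Abcf1 differed by 0.70 ± 0.14 (adjusted p = 0.025), with PPFP pairs at 1.56 to 1.61 and EV pairs at 0.977 to 0.989. No explanation was tested for any of them.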

How the results depend on the processing

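Members called between the lines numbered 10 to 17 (main 17) without and 15 to 23 (main 22) with pioglitazone when 1 library was left out (past 2-fold 7 to 11 and 11 to 12). They numbered 5 to 11 (main 7; past 2-fold 2 to 4) for pioglitazone in PPFP cells, 0 in EV cells and 1 to 4 (main 3; past 2-fold 0 to 1) for the interaction. The lowest counts came without PPFP replicate 3 (10), without PPFP+Pio replicate 2 (15 and, for the interaction, 1) and, for pioglitazone in PPFP cells, without PPFP replicate 2 or 3 or PPFP+Pio replicate 2 (5 each). For Abce1 the response in PPFP cells, 0.16, ranged from -0.00042 without PPFP+Pio replicate 1 to 0.29 without PPFP replicate 1, and its interaction, 0.16, from -0.0038 to 0.30.

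DESeq2 called 11 members for pioglitazone in PPFP cells and 5 for the interaction. With the replicate block, PPFP cells gave 17 members (14 with DESeq2, 17 with RLE size factors, 15 with library size alone, and 18, 16 and 15 without pair 1, 2 or 3). EV cells gave 1 in each of these, except 2 without pair 2, and Abca1 passed in all of them. The interaction gave 17 (13 with DESeq2, 17 with RLE and 16 with library size), of which 4, 3, 4 and 4 passed 2-fold. Between the lines, whose replicate numbers did not pair the libraries, the block gave 14 members without and 17 with pioglitazone. It ended the calls of Abcb6, Abcf3 and Abcg3 without, and of Abca17, Abcc5, Abce1, Abcg3 and Abcg8 with pioglitazone. The block alone called 51.6% of all genes in PPFP cells and 34.3% for the interaction. Between the lines it called 39.5% without and 44.2% with pioglitazone. For the other alternatives in this section no share over all genes is given, so those member counts have no background. Of 67 member results, RLE size factors changed 0 calls, library size alone ended 8 and no filter ended 3. The alternatives of 5 kb and 50 kb around a start site were not run, since binding was not analysed, and the exact test and the fit of all 12 libraries do not apply to the interaction. Members with few counts in some groups, such as Abcc12, Abcc6, Abca4 and Abcb11, are limited by depth.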

Other observations

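In EV cells, ranked by p with the replicate block, Abca1 came first of 10146 genes, and the next 4 did not pass. They were Msmo1 (log2 fold change -0.37, adjusted p = 0.054), Mvd (-0.29, adjusted p = 0.13), Hmgcs1 (-0.59, adjusted p = 0.13) and Atf5 (0.34, adjusted p = 0.17), named by rank alone. Abcb4, the phosphatidylcholine exporter of bile and a row below the count minimum, had 0 counts in all 6 EV and EV+Pio libraries and 3, 5 and 4 in the PPFP libraries, with 0, 2 and 3 in PPFP+Pio. Abcb1b, also below the minimum, had 0 to 3 counts in EV and EV+Pio libraries, 2 to 5 in PPFP and 7 to 10 in PPFP+Pio. Neither Abcb4 nor Abcb1b entered the reported edgeR test. With no filter on low counts, Abcb4 passed between the lines without pioglitazone (adjusted p = 0.014) and Abcb1b with it (adjusted p = 0.0098).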
